A study of Mus musculus with 12 samples.

Results

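The genes described here are 10 sialyltransferases, the Golgi enzymes that place sialic acid on the ends of glycan chains: St8sia1, St8sia2, St8sia4, St3gal1, St3gal2, St3gal3, St3gal4, St3gal5, St3gal6 and St6gal1. They were found by matching these symbols to the Ensembl gene identifiers of the count files, and all 10 were present among 57010 identifiers. The group was selected on the St8sia2 counts, because this gene was almost absent from 8 of the 12 libraries, and the question was whether its relatives had changed with it. The levels of St8sia2 in all 3 groups are therefore a description and were not tested. The other 9 genes are listed as its relatives, but the list was drawn up with earlier results of these data known.

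Poly(A)-selected RNA was sequenced in 12 libraries from primary mouse chondrocytes, the cells that make and keep cartilage matrix. All 12 carry the genotype label wild type. The treatment label gives 4 libraries as Control, 4 as WT and 4 as SIRT5F101L mutant, and the protocol says that cells were transfected with wild-type or SIRT5F101L mutant plasmids. SIRT5 is a sirtuin that removes acyl groups such as malonyl, succinyl and glutaryl from lysines, and the study concerns Sirt5, lysine malonylation and osteoarthritis. What the Control cells received, the promoter on the plasmids, the species of the SIRT5 insert, the age of the mice, the time after transfection and whether the libraries of a group came from separate animals or cultures are not given in the sources used here, so p-values measure only the spread between these libraries.

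Sialic acid reaches a glycan in a fixed order: it is made in the cytosol, activated to CMP-sialic acid in the nucleus, carried into the Golgi and passed to galactose, to N-acetylgalactosamine or to another sialic acid by sialyltransferases that differ in acceptor and linkage. St8sia2 and St8sia4 are the polysialyltransferases, which build long chains of sialic acid mainly on the neural cell adhesion molecule NCAM, with St8sia2 best known from developing tissue. The St3gal enzymes and St6gal1 cap terminal galactose, and the sialylated ends they make are bound by Siglecs and selectins and removed by sialidases.

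The libraries held 15095357 to 24242139 counts, and no 2 of them were identical. Sirt5 itself gave 9 to 16 counts in the Control libraries, 1 to 9 in those labelled WT and 9 to 19 in those labelled SIRT5F101L, and it did not pass the edgeR test in any of the 3 comparisons (adjusted p = 0.143, 0.954 and 0.460 for WT against Control, SIRT5F101L against Control and SIRT5F101L against WT). Sirt5 counts were thus no higher in the libraries labelled WT than in Control, and the group names below are the labels. Whether reads from the plasmid insert would be counted as mouse Sirt5 is not given in the sources used here. Of the chondrocyte markers, 9 of 10 were tested and Chad was listed at 0 in all 12 libraries. Their summed level was 9028 to 11328 scaled read counts (CPM, counts per 1000000) in Control, 2810 to 2925 in WT and 2291 to 2535 in SIRT5F101L, and 2 of the 9 were called higher and 7 lower in WT, with 1 higher and 7 lower in SIRT5F101L, beside 28.7% higher and 28.1% lower in WT and 30% and 30.7% in SIRT5F101L over all genes tested. The fibroblast list also moved with the labels, with 5 of 6 genes lower and 1 higher in each treated group. Its summed level was 29619 to 35527 CPM in Control, 9650 to 11062 in WT and 9303 to 10690 in SIRT5F101L. Dpt, counted as lower, passed the filter on low counts through Control alone, so its fall is a description.

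To show how far the pair of polysialyltransferases can be told apart by sequence, the coding sequences of all 10 genes were compared in the GENCODE M21 annotation. St8sia2, on chromosome 7, has a coding sequence of 1125 bases and St8sia4, on chromosome 1, one of 1077 bases. They were the closest of all pairs, with 694 identical bases among 1066 aligned (65.1%), and the longest identical run was 13 bases, against reads of 150 bases. St3gal1 and St3gal2 came next, with a longest identical run of 16 bases. A conserved stretch of 90 coding bases is given below, from coding position 829 to 918 in St8sia2 and 784 to 873 in St8sia4, read 5′ to 3′, with the 19 differing bases in capitals and the 71 identical ones in lower case.
St8sia2: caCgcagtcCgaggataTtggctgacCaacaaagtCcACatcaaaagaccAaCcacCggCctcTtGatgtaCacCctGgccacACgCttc
St8sia4: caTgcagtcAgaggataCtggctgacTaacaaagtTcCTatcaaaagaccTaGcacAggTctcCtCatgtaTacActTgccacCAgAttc

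St8sia2 (ENSMUSG00000025789) gave 315, 371, 277 and 295 counts in the 4 Control libraries, 6, 7, 0 and 4 in WT, and 1, 2, 0 and 2 in SIRT5F101L. Scaled for library size, this was 18.3, 18.8, 14.7 and 16.1 CPM in Control, 0.296, 0.449, 0 and 0.206 CPM in WT, and 0.0534, 0.130, 0 and 0.113 CPM in SIRT5F101L. Every Control library lay far above every treated one, and the treated groups overlapped, with 17 counts in all in WT and 5 in SIRT5F101L. The means were 17 ± 1.9 CPM in Control, 0.238 ± 0.187 in WT and 0.0741 ± 0.0593 in SIRT5F101L (SD, n = 4 each). Control was 72.6 times WT (95% counting interval 45.2 to 125, from 1258 against 17 counts) and 261 times SIRT5F101L (111 to 804, from 1258 against 5 counts), intervals that cover counting error only. In the libraries without a count, WT replicate 3 and SIRT5F101L replicate 3, the limit of 3 counts that a count of 0 allows was 0.173 and 0.120 CPM. In bulk RNA, fewer cells that express a gene and less of its RNA per cell cannot be told apart.

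St8sia4 (ENSMUSG00000040710), the other polysialyltransferase, was near the lower limit of detection in every group. It gave 10, 11, 8 and 6 counts in Control, 11, 2, 3 and 7 in WT, and 7, 3, 17 and 4 in SIRT5F101L. In CPM these were 0.580, 0.557, 0.426 and 0.328 in Control, 0.542, 0.128, 0.173 and 0.360 in WT, and 0.374, 0.195, 0.681 and 0.227 in SIRT5F101L, and the 3 groups overlapped. The log2 fold change here was −0.59 (SE 0.51, interval −1.75 to 0.57, edgeR adjusted p = 0.340) in WT and −0.27 (SE 0.49, interval −1.38 to 0.83, adjusted p = 0.654) in SIRT5F101L, so falls beyond the lower ends of these intervals, that of St8sia2 among them, were outside them, while changes within them could not be resolved at this depth. Summed over the 4 libraries of a group, St8sia4 held 35, 23 and 31 counts in Control, WT and SIRT5F101L. Per kilobase of exon, St8sia2 made up 99.3% of the pair's level in Control, 74.7% in WT and 42.8% in SIRT5F101L, shares that in the treated groups rest on these few counts. With the longest transcript as the length of each gene, an alternative added after seeing the data, the shares were 98.5%, 59.6% and 27.3%.

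St8sia1 (ENSMUSG00000030283), the GD3 synthase that adds a sialic acid to the ganglioside GM3, was too low to test. It gave 3, 8, 0 and 2 counts in Control, 1, 1, 0 and 3 in WT, and 0, 2, 5 and 6 in SIRT5F101L. It was the one member that the filter on low counts removed. St8sia2 passed that filter through the Control libraries alone.

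**Figure D1:**
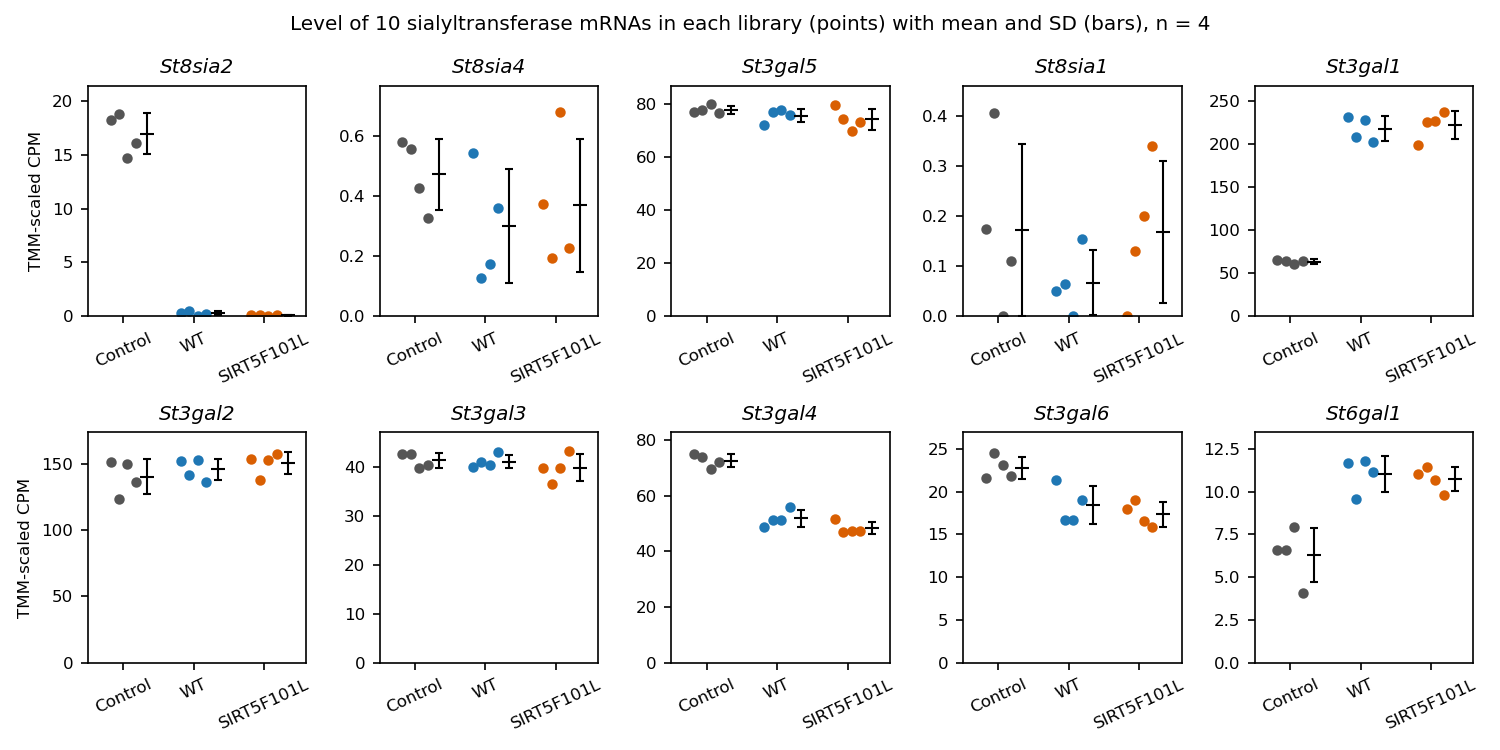
Each panel shows 1 gene, with the TMM-scaled CPM of each library (points, axis from 0) in the Control, WT and SIRT5F101L groups and the group mean with its SD (bars, n = 4). St8sia2 is between 14.7 and 18.8 CPM in Control and at most 0.449 CPM elsewhere, St3gal1 and St6gal1 are higher and St3gal4 and St3gal6 lower in every treated library, and the other members overlap between groups.

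Apart from St8sia2, 8 members could be tested, and they did not move as 1 group. In WT against Control, 2 rose (St3gal1 and St6gal1), 2 fell (St3gal4 and St3gal6) and 4 did not pass (St8sia4, St3gal2, St3gal3 and St3gal5), while 56.8% of all 14253 genes tested passed, 28.7% higher and 28.1% lower. In SIRT5F101L against Control, St3gal1 and St6gal1 rose, St3gal4 and St3gal6 fell and the same 4 did not pass, against 60.7% of all genes tested, 30% higher and 30.7% lower. The median log2 fold change of the 8 was −0.02 in WT and −0.06 in SIRT5F101L, beside −0.01 and −0.02 over all genes tested. A count of 4 among 8 is near the background share, and both comparisons use the same 4 Control libraries. The treated and Control libraries did not overlap for 4 of the 8 in either comparison, beside 53.5% and 51.3% of all genes tested.

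The rise of St3gal1 (ENSMUSG00000013846) was the largest among the tested members. This enzyme adds alpha-2,3-linked sialic acid to the galactose of the core 1 O-glycan. Its level was 65.2, 64.1, 59.9 and 64.1 CPM in Control, 232, 208, 228 and 203 in WT, and 198, 226, 226 and 237 in SIRT5F101L. Every treated library lay above every Control library by a wide margin, and the spread within each group was small beside that gap. The means were 63.3 ± 2.37, 218 ± 14.4 and 222 ± 16.6 CPM (SD, n = 4 each), a 3.43-fold rise in WT (log2 1.78, SE 0.07, edgeR adjusted p = 8.69e-15) and a 3.50-fold rise in SIRT5F101L (log2 1.81, SE 0.07, adjusted p = 6.57e-15). The treated groups overlapped, with a log2 difference of 0.03 (interval −0.12 to 0.17, adjusted p = 0.881).

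St3gal2 (ENSMUSG00000031749), which acts on the same galactose-N-acetylgalactosamine end in O-glycans and gangliosides, did not pass the test. It gave 152, 123, 150 and 137 CPM in Control, 153, 142, 153 and 137 in WT, and 154, 138, 153 and 158 in SIRT5F101L. The groups overlapped, and the edgeR intervals of the log2 fold change were −0.10 to 0.21 in WT (adjusted p = 0.506) and −0.05 to 0.26 in SIRT5F101L (adjusted p = 0.210).

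St3gal4 (ENSMUSG00000032038) and St3gal6 (ENSMUSG00000022747) add alpha-2,3-linked sialic acid to galactose on N-acetyllactosamine and take part in making the sialyl Lewis x ligands of selectins. St3gal4 gave 75.1, 73.8, 69.6 and 71.9 CPM in Control, 48.9, 51.3, 51.3 and 55.9 in WT, and 51.5, 46.9, 47.2 and 47.4 in SIRT5F101L. All 8 treated libraries lay below all Control libraries. From 72.6 ± 2.39 CPM it fell to 51.8 ± 2.95 in WT (0.714 times Control, log2 −0.49, SE 0.06, edgeR adjusted p = 1.58e-06) and to 48.3 ± 2.2 in SIRT5F101L (0.665 times, log2 −0.59, SE 0.06, adjusted p = 1.07e-07).

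St3gal6 gave 21.6, 24.5, 23.1 and 21.9 CPM in Control, 21.4, 16.7, 16.7 and 19.1 in WT, and 18, 19.1, 16.6 and 15.9 in SIRT5F101L. WT replicate 1 lay just under the lowest Control library, and the other 7 treated libraries lay clearly below. The fall was to 0.813 times Control in WT (log2 −0.30, SE 0.10, edgeR adjusted p = 0.0115) and to 0.761 times in SIRT5F101L (log2 −0.39, SE 0.10, adjusted p = 0.00136). Of the merged exon bases of St3gal6, 26.0% are shared with Dcbld2 on the opposite strand, and the strand setting of the counting is not given in the sources used here. Dcbld2 rose, from 53.4 ± 1.81 CPM to 92.6 ± 6.92 in WT (log2 0.80, edgeR adjusted p = 1.17e-08) and 107 ± 9.97 in SIRT5F101L (log2 1.0, adjusted p = 3.07e-10), and the part of the shared bases in the St3gal6 values was not tested. Exon bases are also shared with transcripts on the opposite strand for St3gal4 (14.1%), St6gal1 (4.07%) and St8sia1 (1.60%), and with none for the other 6 members.

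St3gal3 (ENSMUSG00000028538), which sialylates galactose on N-glycans and glycolipids, did not pass. It gave 42.7, 42.8, 39.9 and 40.4 CPM in Control, 40.1, 41.0, 40.5 and 43.1 in WT, and 39.9, 36.6, 39.8 and 43.3 in SIRT5F101L. The groups overlapped, with edgeR intervals of the log2 fold change from −0.16 to 0.14 in WT (adjusted p = 0.922) and −0.21 to 0.10 in SIRT5F101L (adjusted p = 0.517).

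St3gal5 (ENSMUSG00000056091), the GM3 synthase that opens the ganglioside pathway by sialylating lactosylceramide, did not pass either. It gave 77.1, 77.8, 80.0 and 76.7 CPM in Control, 72.1, 77.2, 77.9 and 76.0 in WT, and 79.7, 74.5, 69.9 and 73.3 in SIRT5F101L. The groups overlapped, and the edgeR intervals, −0.17 to 0.09 in WT (adjusted p = 0.581) and −0.20 to 0.06 in SIRT5F101L (adjusted p = 0.323), hold no change larger than 0.20 on the log2 scale.

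St6gal1 (ENSMUSG00000022885) is the main enzyme that adds alpha-2,6-linked sialic acid to N-glycans. It gave 113, 130, 149 and 75 counts in Control, 237, 149, 204 and 217 in WT, and 207, 176, 266 and 173 in SIRT5F101L. In CPM these were 6.56, 6.58, 7.93 and 4.09, then 11.7, 9.55, 11.8 and 11.2, then 11.1, 11.4, 10.7 and 9.80, so that every treated library lay above every Control library. The rise was 1.76-fold in WT (log2 0.81, SE 0.15, edgeR adjusted p = 0.000106) and 1.70-fold in SIRT5F101L (log2 0.77, SE 0.15, adjusted p = 0.000171).

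In SIRT5F101L against WT, 0 of the 8 tested members other than St8sia2 passed the edgeR test, beside 0.0421% of all genes tested (6 genes). At an unadjusted p under 0.05 there were 0 of the 8, beside 11.9% of all genes tested, and for 0 of the 8 were the libraries of the groups apart, beside 4.02% of all genes tested. DESeq2 called 0 of the 8 as well. The interval of the log2 difference was −0.25 to 0.04 for St3gal4, −0.31 to 0.12 for St3gal6, −0.37 to 0.28 for St6gal1, −0.11 to 0.20 for St3gal2, −0.20 to 0.11 for St3gal3, −0.16 to 0.10 for St3gal5 and −0.86 to 1.5 for St8sia4. The number of genes called in this comparison depended on 1 library: it was 2212 without SIRT5F101L replicate 1, and 0 members were among them.

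**Figure D2:**
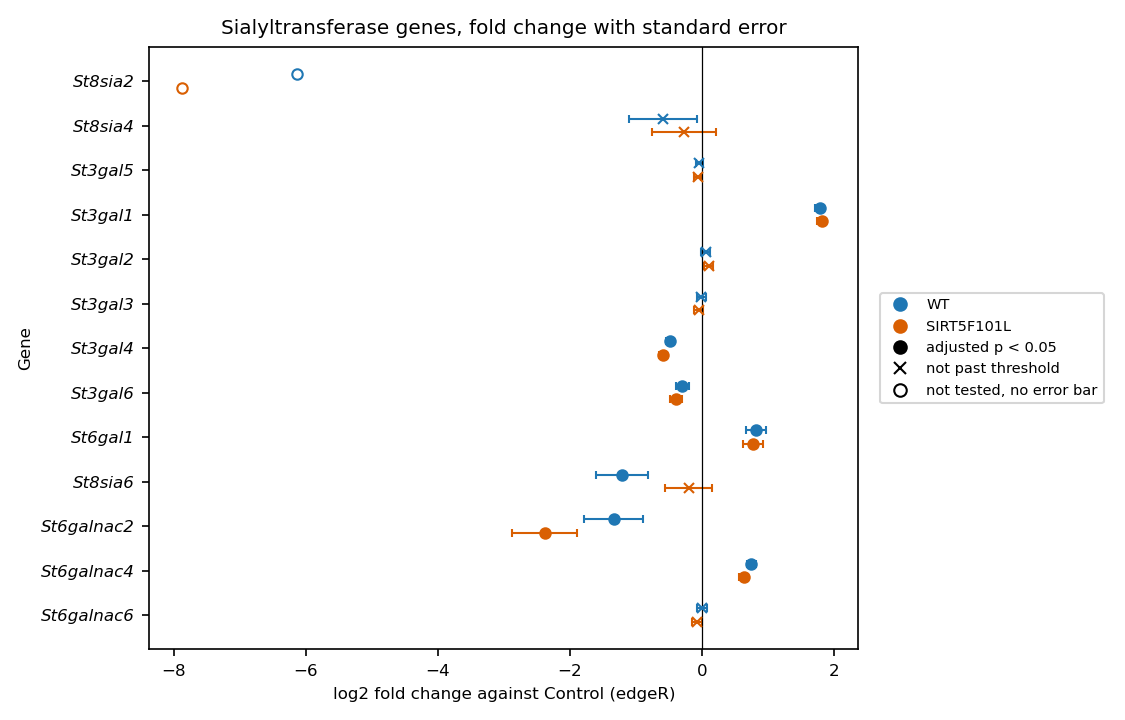
The horizontal axis gives the edgeR log2 fold change against Control with its standard error for the tested sialyltransferases, in WT (blue) and SIRT5F101L (orange); filled circles passed an adjusted p of 0.05, crosses did not, and the open circles of St8sia2 were not tested. St8sia2 lies at −6.14 and −7.88, St3gal1 at 1.78 and 1.81, and the other points between −2.38 and 0.81.

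To compare genes with each other, levels were divided by the length of each gene's merged exons. In Control the order ran from St3gal5 (29.8 ± 0.57 CPM per kilobase, SD, n = 4) and St3gal2 (27.9 ± 2.62) to St3gal4 (24.8 ± 0.82), with neighbours overlapping. St3gal3 (15), St3gal1 (9.25), St3gal6 (3.69), St8sia2 (3.15) and St6gal1 (1.28) followed, each above the next in every Control library, and St8sia4 (0.0235) and St8sia1 (0.0184) came last and overlapped. In both treated groups St3gal1 stood first, at 31.7 ± 2.10 in WT and 32.4 ± 2.42 in SIRT5F101L, overlapping St3gal2 (29.0 and 29.9), and St8sia2 (0.0441 and 0.0138) had dropped to the level of St8sia4 and St8sia1.

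The make-up of the family's RNA changed with it. St3gal1 went from 8.06 ± 0.34% of the summed level per kilobase of the 10 genes in Control to 24.9 ± 1.23% in WT and 25.6 ± 1.88% in SIRT5F101L, while St8sia2 went from 2.75 ± 0.30% to 0.0349% and 0.0109%. The summed level was 115 ± 2.74 CPM per kilobase in Control, 128 ± 2.6 in WT and 127 ± 2.90 in SIRT5F101L. With the longest transcript as the length of each gene, a choice made after seeing the data, St3gal4 (34.7) led the order in Control and St3gal1 (37.9 in WT and 38.7 in SIRT5F101L) still led in the treated groups.

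**Figure D3:**
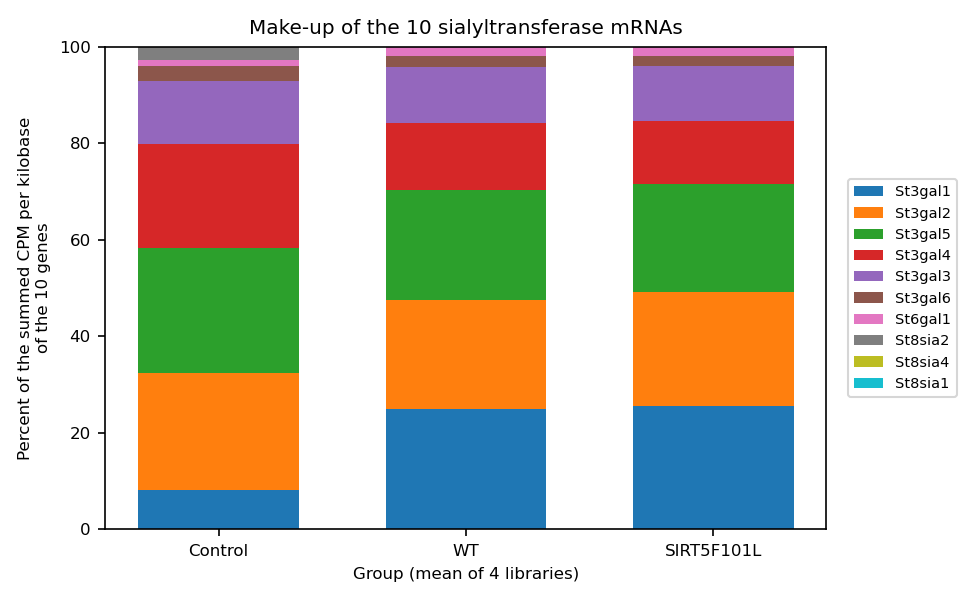
Stacked bars give the share of each of the 10 genes in their summed CPM per kilobase, in percent, as the mean of 4 libraries in each group. The St3gal1 share is 8.06% in Control, 24.9% in WT and 25.6% in SIRT5F101L, and the St8sia2 share, 2.75% in Control, is too thin to see in the treated groups.

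Promoters are shown for the polysialyltransferases because 1 of the pair was nearly absent from the treated libraries and the other too low in all groups for any but a large change to be resolved. RefSeq windows of 300 bases around gene starts (250 before and 50 after, build GRCm38.p6) matched 8 of the 10 members, in 11 windows. The GC box, GGGCGG on either strand, lay in 8 of the 11 windows, at least 1 for each of the 8 members, beside 35.7% of 32851 windows of the same length. The windows without it were 1 of the 2 of St3gal6 and 2 of the 3 of St6gal1. TATAAA (13.6% of all windows) and CACGTG (7.15%) were in none of the members' windows, and the NF-kB consensus (8.46%) was in 1, of St3gal6. The St8sia2 window had 68.7% G and C and 2 GC boxes and that of St8sia4 61.3% and 1, beside a median of 52.7% G and C over all windows. The 250 bases before the start are given below 5′ to 3′ on the minus strand, at chr7:74013683-74013932 for St8sia2 and chr1:95667595-95667844 for St8sia4, with the GC boxes, or their reverse complement, in capitals.
St8sia2: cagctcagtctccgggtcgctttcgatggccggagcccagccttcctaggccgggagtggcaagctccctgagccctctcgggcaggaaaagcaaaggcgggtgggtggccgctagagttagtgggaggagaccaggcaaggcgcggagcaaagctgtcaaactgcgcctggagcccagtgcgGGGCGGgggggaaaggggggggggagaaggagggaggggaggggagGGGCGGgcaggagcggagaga
St8sia4: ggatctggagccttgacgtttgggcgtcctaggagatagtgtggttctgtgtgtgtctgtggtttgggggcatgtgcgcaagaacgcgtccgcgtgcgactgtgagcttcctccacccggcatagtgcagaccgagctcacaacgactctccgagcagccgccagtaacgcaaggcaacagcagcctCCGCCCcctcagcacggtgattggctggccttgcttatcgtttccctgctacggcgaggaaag

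Outside the members there are 10 other sialyltransferases of the mouse, of which 4 could be tested. St8sia3 was listed at 0 in all libraries, and St8sia5, St6gal2, St6galnac1, St6galnac3 and St6galnac5 reached at most 3, 3, 2, 10 and 1 counts. St6galnac4, which adds sialic acid to the N-acetylgalactosamine of an already sialylated core 1 O-glycan, the product of St3gal1, rose from 55.3 ± 1.81 CPM to 92.8 ± 6.62 in WT (log2 0.75, edgeR adjusted p = 5.18e-09) and 85.6 ± 4.61 in SIRT5F101L (log2 0.63, adjusted p = 6.11e-08). St6galnac6, which acts on gangliosides, did not pass in either (92.8 ± 3.27, 92.6 ± 0.52 and 88.1 ± 11.4 CPM, adjusted p = 0.978 and 0.393).

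St6galnac2 and St8sia6 were low but tested. St6galnac2 gave 22, 37, 29 and 23 counts in Control, 7, 14, 11 and 10 in WT, and 2, 0, 11 and 9 in SIRT5F101L, and it fell by 1.34 on the log2 scale in WT (edgeR adjusted p = 0.0146) and by 2.38 in SIRT5F101L (adjusted p = 0.000308). The call in WT was lost without WT replicate 1 (log2 −1.14, adjusted p = 0.0528). It would not have passed the filter on low counts without the Control libraries, where it was highest, so both calls are given as a description. Of its exon bases, 15.2% are shared with an opposite-strand transcript and with a second identifier of the same symbol. St8sia6, the remaining member of the St8sia branch with counts enough to test, gave 18, 15, 20 and 18 counts in Control, 9, 7, 4 and 10 in WT, and 13, 20, 24 and 7 in SIRT5F101L. It fell by 1.21 on the log2 scale in WT (edgeR adjusted p = 0.0140), a call lost without WT replicate 3 (log2 −1.02, adjusted p = 0.0521). In SIRT5F101L it did not pass (log2 −0.20, edgeR adjusted p = 0.649). St8sia6 too would not have passed the filter on low counts without the Control libraries, so its call in WT is given as a description. The difference between the treated groups did not pass for St8sia6 (log2 1.01, adjusted p = 0.371).

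The counts of the pathway lists that follow are read beside the same shares over all genes tested, 28.7% higher and 28.1% lower in WT and 30% higher and 30.7% lower in SIRT5F101L. Of 6 carriers of polysialic acid 5 were tested, and 3 rose and 0 fell in WT and 4 rose and 0 fell in SIRT5F101L (median log2 fold change 0.44 and 0.53). Ncam1, the main carrier, gave 12.7, 12.4, 13.1 and 15.1 CPM in Control, 25.9, 24.5, 25.3 and 21.8 in WT, and 22.6, 26.8, 26.8 and 29.6 in SIRT5F101L. All treated libraries lay above all Control libraries, and the rise on the log2 scale was 0.87 (SE 0.10, edgeR adjusted p = 2.42e-07) in WT and 0.99 (SE 0.10, adjusted p = 3.48e-08) in SIRT5F101L. Nrp2, a neuropilin that carries polysialic acid on dendritic cells, rose from 310 ± 22.6 CPM to 447 ± 25.6 in WT (log2 0.53, edgeR adjusted p = 1.35e-06) and 452 ± 31.7 in SIRT5F101L (log2 0.55, adjusted p = 8.15e-07).

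Of 9 genes that supply or modify sialic acid 6 were tested, with 2 higher and 2 lower in WT and 3 higher and 2 lower in SIRT5F101L (median log2 fold change 0.19 and 0.00), so that 4 of 6 were called in WT, beside 56.8% of all genes tested, and 5 of 6 in SIRT5F101L, beside 60.7%. Cmas, which makes CMP-sialic acid, rose from 49.1 ± 2.57 CPM to 67.8 ± 4.68 in WT (log2 0.47, edgeR adjusted p = 5.87e-05) and 68.4 ± 8.63 in SIRT5F101L (log2 0.48, adjusted p = 3.86e-05). Slc35a1, which carries CMP-sialic acid into the Golgi, fell from 44.1 ± 0.45 CPM to 36.8 ± 2.10 in WT (log2 −0.26, edgeR adjusted p = 0.00241) and 36.2 ± 1.71 in SIRT5F101L (log2 −0.29, adjusted p = 0.000955).

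Enzymes that build the galactose ends used by the St3gal group were tested for 7 of 10 genes, with 3 higher and 1 lower in each treated group (median log2 fold change 0.12 in WT and 0.09 in SIRT5F101L), near the 56.8% and 60.7% called over all genes tested. C1galt1, which makes the core 1 O-glycan that St3gal1 sialylates, rose from 78.4 ± 2.50 CPM to 265 ± 14.9 in WT (log2 1.76, edgeR adjusted p = 3.11e-15) and 298 ± 18.8 in SIRT5F101L (log2 1.93, adjusted p = 7.75e-16). Gcnt1, which branches core 1 into core 2, rose from 23.6 ± 1.33 CPM to 37.2 ± 2.69 in WT (log2 0.66, edgeR adjusted p = 1.10e-06) and 34.9 ± 3.28 in SIRT5F101L (log2 0.57, adjusted p = 7.86e-06). The gene for the chaperone of C1galt1, C1galt1c1, was listed at 0 in all 12 libraries. For this gene, as for the others at 0 in all libraries, absent RNA and uncounted reads cannot be told apart.

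The ganglioside genes other than the sialyltransferases were all tested, and 3 of 9 rose and 4 fell in each treated group (median log2 fold change 0.02 in WT and 0.00 in SIRT5F101L). B4galt5, a lactosylceramide synthase that makes the acceptor of St3gal5, rose from 75.0 ± 3.98 CPM to 165 ± 7.24 in WT (log2 1.14, edgeR adjusted p = 2.47e-12) and 159 ± 8.09 in SIRT5F101L (log2 1.09, adjusted p = 4.74e-12). Hexa, the alpha subunit of the hexosaminidase that degrades GM2, fell from 464 ± 22.8 CPM to 180 ± 5.60 in WT (log2 −1.36, edgeR adjusted p = 1.46e-13) and 169 ± 12.3 in SIRT5F101L (log2 −1.46, adjusted p = 4.84e-14).

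Of the sialidase list, 4 of 6 genes were tested and 1 fell in each treated group (median log2 fold change −0.05 in WT and −0.07 in SIRT5F101L): Ctsa, the cathepsin that protects the lysosomal sialidase, fell from 822 ± 26.8 CPM to 523 ± 19.9 in WT (log2 −0.65, edgeR adjusted p = 4.27e-09) and 516 ± 24 in SIRT5F101L (log2 −0.67, adjusted p = 2.61e-09). Of 12 sialic acid readers 5 were tested, with 3 higher and 1 lower in each treated group (median log2 fold change 0.96 in WT and 1.10 in SIRT5F101L). Siglec15, among the 3 higher, gave 4, 1, 1 and 1 counts in Control and passed the filter on low counts only through the treated libraries. Its rise is therefore a description, and it enters both medians. Selp, the gene of P-selectin, rose from 1.93 ± 0.78 CPM to 8.16 ± 1.27 in WT (log2 2.09, edgeR adjusted p = 6.22e-08) and 9.04 ± 1.58 in SIRT5F101L (log2 2.24, adjusted p = 1.89e-08).

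Siglecg and Siglec1 were low as well. Siglecg, known from B cells, rose from 1.32 ± 0.15 CPM to 2.56 ± 0.32 in WT (log2 0.96, edgeR adjusted p = 0.00109) and 2.83 ± 0.56 in SIRT5F101L (log2 1.10, adjusted p = 0.000228). Siglec1, a receptor of macrophages, fell from 4.04 ± 0.60 CPM to 1.97 ± 0.48 in WT (log2 −1.03, edgeR adjusted p = 0.000453) and 2.14 ± 0.49 in SIRT5F101L (log2 −0.93, adjusted p = 0.000995). Macrophage markers moved with it: 8 of 10 were tested and all 8 fell in each treated group, beside 28.1% of all genes lower in WT and 30.7% in SIRT5F101L, with a summed level of 173 to 206 CPM in Control, 86.2 to 98.8 in WT and 85.9 to 111 in SIRT5F101L and Itgam at 0 in all 12 libraries. Their part in the reader values was not tested. In SIRT5F101L against WT, 0 genes of these pathway lists passed the edgeR test, beside 0.0421% of all genes tested, and 2 passed an unadjusted p of 0.05, beside 11.9%.

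**Figure D4:**
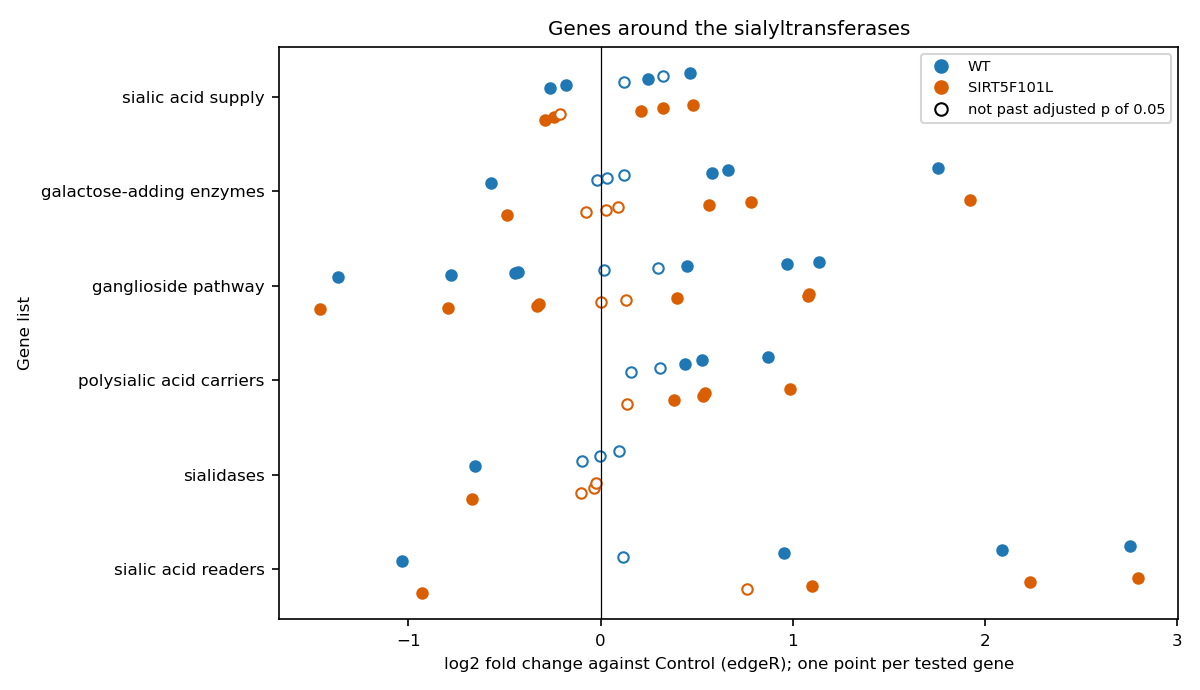
Each point is 1 tested gene of a list, placed by its edgeR log2 fold change against Control in WT (blue) or SIRT5F101L (orange); filled points passed an adjusted p of 0.05 and open points did not. The supply, galactose and ganglioside lists have filled points on both sides of 0, and the carriers have them on the higher side, 3 in WT and 4 in SIRT5F101L.

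Other marker lists are given beside St8sia2, to be read against the same shares over all genes (28.1% lower in WT and 30.7% in SIRT5F101L). Of the osteoblast list 3 of 5 genes passed the filter on low counts. Sp7 was called lower in each treated group, and Ibsp is not counted as a call, for the reason given below. The summed level of the list was 59.4 to 69.3 CPM in Control, 38.1 to 49.1 in WT and 35.3 to 57.3 in SIRT5F101L. Runx2, which did not pass, made up most of that sum (45.8, 42.5 and 50.3 CPM). Ibsp, the gene of bone sialoprotein, was at 14.7 CPM in Control, 0.284 in WT and 0.146 in SIRT5F101L (fitted log2 −5.64 and −6.50, beside −6.14 and −7.88 for St8sia2), a description with no test, since it was singled out after its values were seen and passed the filter through Control alone. Of the neural list, the tissue in which polysialic acid is best known, 3 of 5 genes were tested, 2 rose and 1 fell in each treated group, and the summed level was 37.6 to 45.9 CPM in Control, 13.5 to 15.9 in WT and 13.0 to 15.1 in SIRT5F101L. Map2 alone carried the fall of that sum (38.1 CPM in Control, 6.26 in WT and 6.95 in SIRT5F101L), while Tubb3 and Sox10 rose. Sox10 passed the filter on low counts only through the treated libraries, where it was highest, so its rise is a description. Its SIRT5F101L libraries overlapped Control. Of the muscle list 2 of 5 were tested and both fell in each treated group (7.59 to 9.10 CPM in Control, 2.31 to 4.56 in WT and 1.87 to 3.69 in SIRT5F101L). Des, counted there, would not have passed the filter on low counts without the Control libraries, where it was highest, so its fall is a description. Of the endothelial list 4 of 5 were tested and 0 passed (3.54 to 4.58, 3.23 to 4.16 and 3.17 to 4.81 CPM). The part of any other cell type in the level of St8sia2 was not tested.

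The genes whose pattern was most like that of St8sia2, by Pearson correlation of log2 CPM over the 12 libraries, were Dirc2 (r = 0.990), Mthfd2 (0.988), Cdkn1c (0.988), Plekho1 (0.986) and Ndrg4 (0.985). The 12 points share their 3 groups of 4 libraries, and 521 of 12464 genes compared had r over 0.95. The mean level went from 85.8 CPM in Control to 28.0 in WT and 24.1 in SIRT5F101L for Mthfd2, a mitochondrial folate enzyme, and from 7.47 to 1.15 and 0.917 for Cdkn1c, a cell cycle inhibitor.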

How the data were processed

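Gene counts of 12 libraries were used as deposited, 1 file a library. Per the labels' protocols, mRNA was captured on poly-T beads, made into libraries with a NEBNext Ultra kit and read as pairs of 150 bases. The submitters' processing notes name FastQC 0.11.9, HISAT2 2.2.1, HTSeq 2.0.2 and DESeq2 1.38.3 and the build GRCm39 (mm39), so the authors' values are whole read counts per gene. The strand setting, the annotation and the treatment of reads that match several genes are not given in the sources used here.

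Genes were matched by Ensembl identifier, and 52029 of 57010 identifiers had a symbol. Genes that passed edgeR's expression filter (14253) were scaled by TMM and tested 2-sided with the quasi-likelihood test of edgeR 4.0.16 (R 4.3.3) over all 12 libraries, with 1 mean a group and 9 residual degrees of freedom, and p-values were adjusted over all genes tested by Benjamini-Hochberg with a threshold of 0.05. The biological coefficient of variation was 9.18%. Levels are TMM-scaled CPM. Intervals of fold changes are the estimate with its standard error and the t quantile. The fit was tested on simulated counts. Totals of 15095357 to 24242139 counts put a level of 3 counts at 0.120 to 0.195 CPM.

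St8sia2 was described without a test in all 3 comparisons, since its counts chose the group. Replicate numbers follow accession order and pair nothing. The members, gene lists and tests were chosen with earlier results of these data known. Named genes were the members, the other sialyltransferases, Ncam1, the 2 genes of each pathway list with the lowest adjusted p under 0.05 in each comparison with Control, and the 5 genes most like St8sia2; Dcbld2 was added after its overlap with St3gal6 was found. Ibsp, Sp7, Runx2, Dpt, Des, Map2, Tubb3 and Sox10 of the marker lists, and Siglec15 and C1galt1c1, were named after their values were seen. Alternatives were RLE and upper-quartile scaling, other filters, DESeq2 1.42.0, the 8 libraries of each comparison alone, and leaving out libraries. Exon lengths and coding sequences came from GENCODE M21 (GRCm38) and promoters from RefSeq, both of another build than the counts, so no coordinates were carried between them.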

Additional observations from a re-analysis of the deposited data

Results flagged for a closer look

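The level of St3gal4 in SIRT5F101L replicate 1 was 51.5 CPM (965 counts), apart from the other 3 libraries of that group, which lay between 46.9 and 47.4 CPM. The gap was 0.899 of the group's range. It was 1 of 30 groups of 4 libraries screened (10 members in 3 groups), and chance alone flags about 1 in 20, or 1.5 of 30. The value still lay below every Control library, the lowest of which was 69.6 CPM.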

How the results depend on the processing

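The 10 members gave 4 calls against Control (2 higher and 2 lower, St8sia2 not counted) in each comparison under all 19 alternatives, and 0 calls in SIRT5F101L against WT. Over these fits the adjusted p ranged from 0.00104 to 0.0459 for St3gal6 in WT, the member nearest the threshold, and from 0.000332 to 0.00638 in SIRT5F101L. The number of all genes called in SIRT5F101L against WT was 6 and moved to 354 with no filter beyond 1 count, 44 with DESeq2, 2 with only the 8 libraries compared and 2882 without WT replicate 1 and SIRT5F101L replicate 1. Leaving out 1 library each gave 0 to 2212, with 2212 without SIRT5F101L replicate 1 and 3 without Control replicate 2. The cause was not tested.

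Signs turned only among log2 differences that passed no test. In WT against Control, St3gal3 went to 0.00619 with only the 8 libraries compared and 0.00460 without WT replicate 1 and SIRT5F101L replicate 1, and St6galnac6 to 0.000771 with RLE scaling, 0.000793 with DESeq2 and 0.0126 with only the 8 libraries. Leaving out 1 library each, WT against Control ranged from −0.00215 to 0.0954 for St3gal2, −0.0315 to 0.00501 for St3gal3 and −0.0264 to 0.0103 for St6galnac6, and SIRT5F101L against Control from −0.454 to 0.0208 for St8sia6. In SIRT5F101L against WT the same ranges were −0.207 to 0.763 for St8sia4, −0.00611 to 0.0803 for St3gal1 and −0.0628 to 0.000916 for St3gal5. St6galnac6 passed as lower in SIRT5F101L without SIRT5F101L replicate 1 (log2 −0.16, edgeR adjusted p = 0.0177). The fitted St8sia2 value in SIRT5F101L moved from −7.88 to −7.36 without SIRT5F101L replicate 3. Upper-quartile scaling moved the median of all genes to −0.06 in both comparisons with Control.

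No paired analysis was possible because the labels give no replicate numbers shared between groups. Depth limits St8sia1, St8sia4 and, in the treated groups, St8sia2, which rest on at most 8, 17 and 7 counts a library.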
